A study of Rattus norvegicus with 6 samples.

Results

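The 2 microRNA (miRNA) precursors miR-21 and miR-31a were followed through the differentiation of rat oligodendrocyte precursors in culture, which mature into the glia that wrap axons in myelin. The members were the 4 probes named for either arm of the 2 hairpins, rno-miR-21-5p, rno-miR-21-3p, rno-miR-31a-5p and rno-miR-31a-3p (written without the rat prefix from here on), among 761 rat miRNA probes on the array. They were picked by name, but the pair was proposed because the 5p arms were lower in differentiated cells on these arrays, so values of that contrast are a description. No p-value is given for the 4 arms, and which of them passed the fit across all miRNAs is only counted beside the share of all miRNAs that did. All 4 were detected on all 6 arrays and were among the 695 miRNAs tested. The group titled DIV0 held 3 samples grown in standard Raff medium, labelled as the normal condition. The group titled DIV3 held 3 samples of the same cell type after the usual exchange of growth factors, labelled as differentiated. The numbers 0 and 3 in the titles were read as days in culture, so time and medium cannot be told apart. No strain, age, genotype or purification step was stated for either group, and nothing says that replicates came from separate cultures, so any p-value measures the spread between these samples only, which may be technical.

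A miRNA hairpin is cut into a short duplex, of which 1 strand, the guide, is usually loaded into an Argonaute protein while the other, the passenger, is mostly degraded. The guide pairs with messenger RNAs mainly through its seed, the run of bases near its 5′ end. In both hairpins the 5p arm is the usual guide and the 3p arm the passenger. miR-21 is abundant in many growing and tumour cells, is induced by growth factor and STAT3 or AP-1 signalling, and lowers the growth inhibitor Pdcd4. In the nervous system it is known from reactive astrocytes and injured tissue. miR-31 is best known from epithelia and tumours, where it is linked to growth, invasion and the timing of cell differentiation.

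The mature sequences are shown because each probe reads 1 of them, and because the antisense miRNA miR-31b shares sequence with both miR-31a arms. They are RefSeq's for the rat assembly GRCr8, written 5′ to 3′, with the seed (bases 2 to 8) in capitals.
miR-21-5p: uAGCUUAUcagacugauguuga
miR-21-3p: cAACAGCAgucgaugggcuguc
miR-31a-5p: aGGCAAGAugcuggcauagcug
miR-31a-3p: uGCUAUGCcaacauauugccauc
miR-31b: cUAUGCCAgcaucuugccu
The 4 members have 4 different seeds, and none of the 693 mature rat miRNAs in the RefSeq table shares a seed with any of them. The G and C content was 36.4% for miR-21-5p, 59.1% for miR-21-3p, 54.5% for miR-31a-5p and 43.5% for miR-31a-3p. The middle 50% of the 625 tested miRNAs with a RefSeq sequence lay between 41.7% and 56.5%. The 2 guides thus lie on either side of the median of 48.0%.

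The hairpins show where both arms lie, in capitals. In GRCr8 the miR-21 hairpin occupies chr10:71902600-71902691 on the minus strand, between the genes Tubd1 and Vmp1. Vmp1 runs on the same strand, so that the hairpin lies on the side of its 3′ end. The miR-31a hairpin occupies chr5:108714849-108714954, also on the minus strand, within the annotated span of the long non-coding RNA LOC130062807, which runs on that strand.
Mir21: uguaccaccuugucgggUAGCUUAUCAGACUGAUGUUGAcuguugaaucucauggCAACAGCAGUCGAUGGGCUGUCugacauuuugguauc
Mir31: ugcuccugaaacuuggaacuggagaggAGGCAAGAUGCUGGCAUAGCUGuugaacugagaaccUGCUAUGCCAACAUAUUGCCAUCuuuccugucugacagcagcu
The miR-31b gene (Mir3554) covers the same place on the plus strand. All 19 bases of miR-31b pair with miR-31a-5p as its reverse complement. Read in the same direction, 16 of its 19 bases match miR-31a-3p, so the probes for miR-31a-3p and miR-31b could share some signal.

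Every sample had an array of its own, with 3200 spots read in a single colour (Cy5). The DIV0 array of replicate 3 was dim: its median miRNA spot lay 5.87 intensity units above the blank spots, against 25.5 to 44.7 on the other 5 arrays. Its spike-in controls averaged 6832 units against 27861 to 36833. The number of arrays limits the precision of every value. All 5 markers of oligodendrocyte differentiation rose in DIV3, from miR-338-5p with a log2 fold change of 0.95 to miR-219a-5p with 3.40 (limma adjusted p = 0.018 and 0.036), beside 1.15% of all miRNAs that rose. The list was chosen with earlier results of these data known, so the count is no independent check. Its summed deposited values (scaled to a median of 25 on each array) differed between replicates. They were 746, 189 and 265 in DIV0 and 4020, 2616 and 2630 in DIV3, highest in replicate 1 in both. For miR-219a-5p alone the DIV0 values were 273, 22 and 43. What sets replicate 1 apart was not tested. Passenger arms of the same miRNAs left off the list did not pass: miR-219a-1-3p (-0.13), miR-138-2-3p (-0.26) and miR-138-1-3p (0.21). No miRNA passed the threshold with slide as a fixed block (limma, 87 at an unadjusted p under 0.05), nor in 6 of the 9 fits that left out 1 array or 1 pair (61 to 80 at an unadjusted p under 0.05). Each array of replicate 3 lay on a slide without another array, so the fixed block takes both up. That fit therefore rests on replicates 1 and 2, and its lack of calls does not show an effect of the slide.

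The miR-21 guide was a bright probe in both conditions and was lower after differentiation. In the deposited values, which are linear intensities above the blank spots scaled to a median of 25 on each array, miR-21-5p stood at 3429, 2688 and 2387 on the DIV0 arrays of replicates 1, 2 and 3. On the DIV3 arrays it stood at 1653, 1738 and 1777. All 3 DIV3 values were below all 3 DIV0 values, and the DIV3 arrays lay closer together than the DIV0 arrays on this scale. The means were 2835 ± 536 and 1723 ± 63.4 (SD, n = 3 each), a ratio of 1.65. On the normalized log2 scale, where background-corrected intensity plus 50 units was quantile-normalized, the levels were 11.88, 11.88 and 11.77 in DIV0 and 10.79, 11.21 and 11.21 in DIV3. Here the spread was the other way round, with an SD of 0.07 in DIV0 and 0.25 in DIV3. The log2 fold change was -0.78 ± 0.13 (SE, n = 3 per group). By brightness among the 761 probes the spot held ranks 6, 6 and 8 on the DIV0 arrays and ranks 22, 16 and 16 on the DIV3 arrays. Quantile normalization assigns a level to each rank, so equal ranks give the near-equal levels above.

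**Figure D1:**
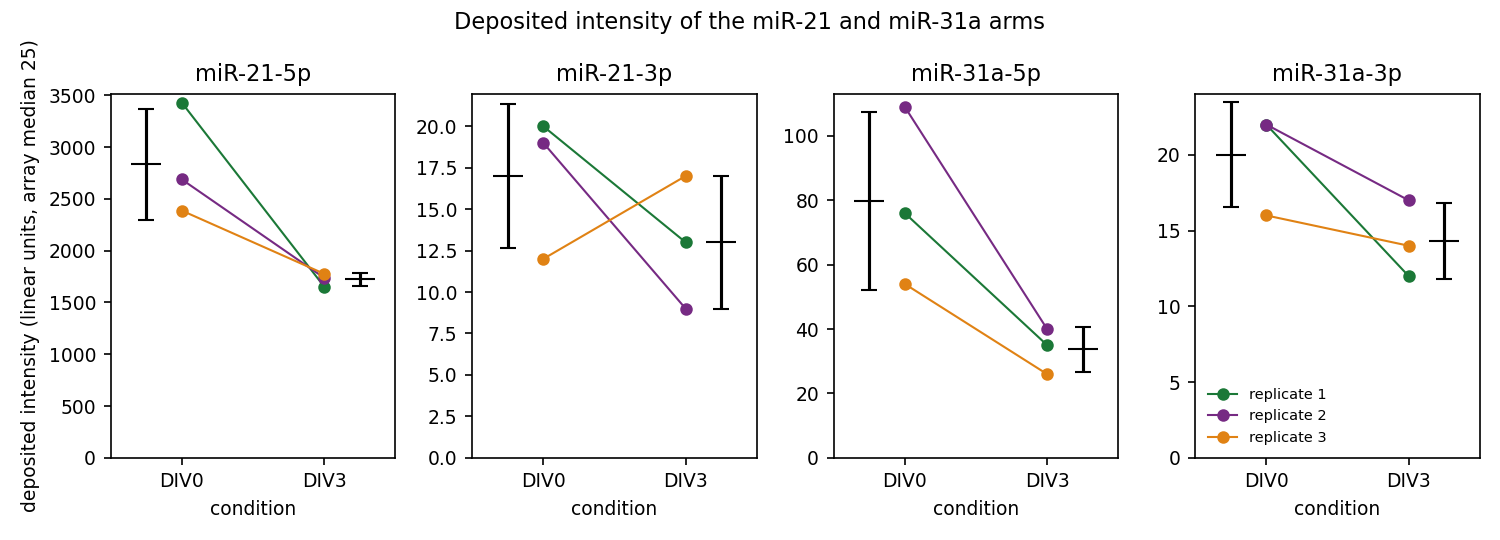
Deposited intensity (linear units, array median 25, axes from 0) of the 4 arms in DIV0 and DIV3. Points are arrays, lines join arrays of equal replicate number, and black bars give the mean and SD of 3 arrays. The 3 DIV3 points of miR-21-5p (1653 to 1777) and of miR-31a-5p (26 to 40) lie below their DIV0 points, while those of both 3p arms overlap.

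The miR-21 passenger was near the floor of the array. Its deposited values were 20, 19 and 12 in DIV0 and 13, 9 and 17 in DIV3. The groups overlapped, with the highest DIV3 value above the lowest DIV0 value. The means were 17 ± 4.36 and 13 ± 4 (SD, n = 3 each). The normalized levels were 6.27, 6.26 and 6.12 in DIV0 and 6.04, 5.96 and 6.25 in DIV3. They differed by -0.13 ± 0.09 (log2 fold change, SE). The spot exceeded the blank mean by 3.17 to 9.62 SD of the blanks. Among 513 spots listed as having no probe, 1.17% to 17.7% were at least as bright on the same array. No such spot was as bright as miR-21-5p on any array, and that guide lay at least 626 blank SD above the blank mean.

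The miR-31a guide was of middling brightness and was also lower in DIV3 on every array. Its deposited values were 76, 109 and 54 in DIV0 and 35, 40 and 26 in DIV3. The groups did not overlap, and replicate 2 was the highest and replicate 3 the lowest array in both conditions. The means were 79.7 ± 27.7 and 33.7 ± 7.09 (SD, n = 3 each), a ratio of 2.37. The normalized levels were 7.15, 7.74 and 7.12 in DIV0 and 6.51, 6.71 and 6.47 in DIV3. The log2 fold change was -0.78 ± 0.18 (SE, n = 3 per group). The change is smaller on this scale than in the deposited values because the 50 added units weigh on a probe that lay only 18.5 to 207.7 units above the blanks. Spots with no probe reached its brightness on 3 arrays, 1 of 513 on the DIV0 array of replicate 1, 6 on that of replicate 3, and 50 (9.75%) on the DIV3 array of replicate 3. With 16 units added in place of 50 it was -1.07 ± 0.23. That of the much brighter miR-21-5p was then -0.79.

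The miR-31a passenger was as dim as that of miR-21. Its deposited values were 22, 22 and 16 in DIV0 and 12, 17 and 14 in DIV3, with means of 20 ± 3.46 and 14.3 ± 2.52 (SD, n = 3 each). Here 1 DIV3 value, 17, exceeded the lowest DIV0 value. On the normalized scale the levels were 6.31, 6.34 and 6.24 in DIV0 and 6.0, 6.22 and 6.18 in DIV3, which did not overlap. The log2 fold change was -0.17 ± 0.07 (SE), so whether the groups separate depended on the scale. The spot lay 5.01 to 10.5 blank SD above the blank mean, and 0.390% to 18.1% of the spots with no probe were at least as bright. The miR-31b probe, which shares sequence with this arm, was detected on 3 of the 6 arrays, with deposited values of 10 (DIV0 replicate 1), 8 (DIV3 replicate 1) and 7 (DIV3 replicate 2). Its log2 fold change was -0.04 ± 0.07 (SE), and its part in the miR-31a-3p signal was not tested.

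Counted by separation of the groups, 3 of the 4 members had all DIV3 levels below all DIV0 levels on the normalized scale, where 8.79% of all miRNAs with a value on every array did. In the deposited values these were 2 of 4, the 2 guides, against 2.97% of 538 miRNAs. In the limma fit across all 695 miRNAs, 1 of the 4 members, miR-21-5p, was among the 6 that passed as lower, or 0.863%. With the replicate number as a block, miR-31a-5p passed as well, 2 of 4 members beside 14 of all miRNAs, or 2.01%. The standard error of miR-31a-5p was then 0.10 in place of 0.18, and that of miR-21-5p 0.11 in place of 0.13. Since the guides were chosen on this contrast, nothing is read from these counts. In the 9 fits that left out 1 array or 1 pair, miR-21-5p passed in 0 and miR-31a-5p in 0. Of all 695 miRNAs, 3 passed as lower without the DIV0 array of replicate 1 and 2 without that of replicate 2. In the other leave-out fits 0 of all miRNAs passed as lower. Under the 13 processing alternatives miR-21-5p passed in 6 and miR-31a-5p in 3. The passes of miR-21-5p with changed filters, the replicate block and slide as a random block used the reported normalized values. On other values miR-21-5p passed only when scaled to a median of 25, where miR-31a-5p passed too, and under cyclic loess. Of all 695 miRNAs, 14 passed as lower with the replicate block and 12 with slide as a random block. When scaled to a median of 25 there were 5 of 695, and under cyclic loess 2. With changed filters there were 6 of 761 and 6 of 536. Neither guide passed in the deposited values, with the local background, with spike-in scaling or with slide as a fixed block. The same held with 16 units added, and under both scalings with 50 units added first. In these settings no miRNA passed as lower.

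**Figure D2:**
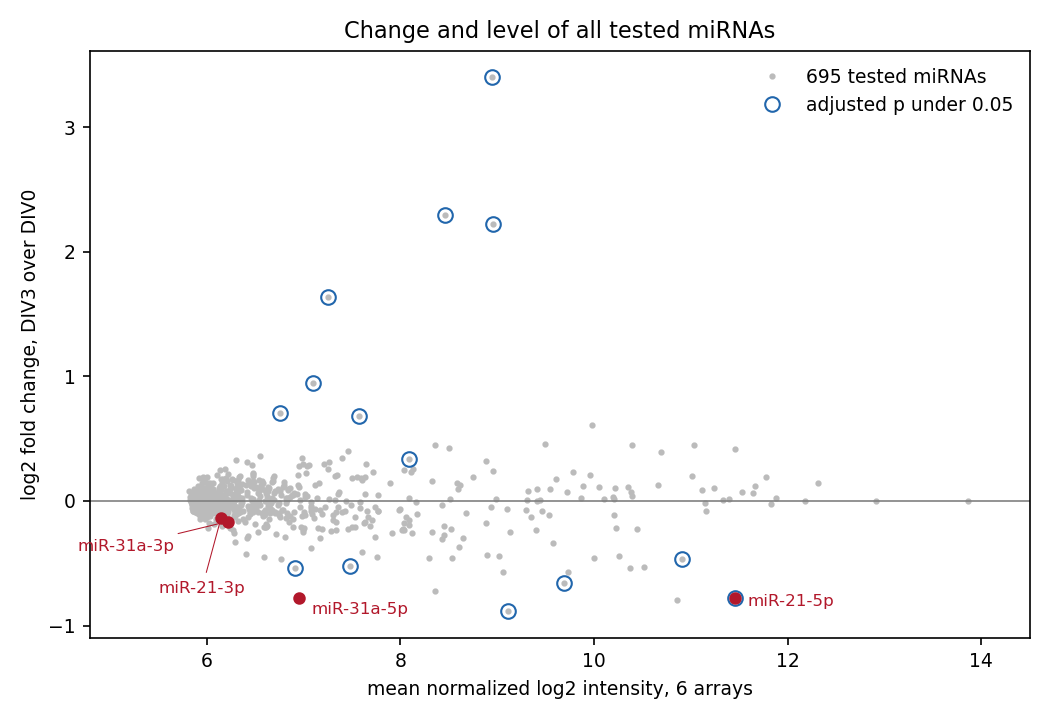
Log2 fold change of DIV3 over DIV0 against the mean normalized log2 intensity over 6 arrays for the 695 tested miRNAs (grey), with those past an adjusted limma p of 0.05 circled in blue and the 4 arms in red. The 2 guides have nearly the same change (-0.78) at very different brightness, and the 2 passengers lie in the dense group of dim probes.

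Within pairs of equal replicate number the guides differed in where their change was largest. For miR-21-5p the normalized log2 difference of DIV3 minus DIV0 was -1.10, -0.67 and -0.56 in pairs 1, 2 and 3. For miR-31a-5p it was -0.64, -1.04 and -0.65. Both guides were lower in 3 of 3 pairs, and pair 1 was the largest for miR-21-5p while pair 2 was the largest for miR-31a-5p. The passenger miR-21-3p was lower in 2 of 3 pairs, at -0.23, -0.30 and 0.13. The passenger miR-31a-3p was lower in 3 of 3, at -0.31, -0.13 and -0.06. Pairs 1 and 2 each shared a slide, and the arrays of pair 3 lay on separate slides. DIV0 always took the first position of a slide and DIV3 the other one, and these effects cannot be told apart.

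The change of each guide was larger than that of its passenger on the normalized scale. The log2 fold change of miR-21-5p minus that of miR-21-3p was -0.64, with pair values of -0.87, -0.37 and -0.68 (SD 0.25, n = 3 pairs). For miR-31a the difference was -0.61, with pair values of -0.33, -0.91 and -0.59 (SD 0.29, n = 3 pairs). The direction held in 3 of 3 pairs for both hairpins. The added 50 units shrink the change of dim probes, so part of this difference can come from the scale itself. In the deposited values, which carry no added units, the difference for miR-31a was -0.73 with pair values of -0.24, -1.07 and -0.86. For miR-21 it was -0.30 with pair values of -0.43, 0.45 and -0.93, and the pair numbered 2 went the other way. The spread over pairs, 0.70 (SD), was then larger than the mean. For miR-31a the SD over pairs was 0.43. These differences rest on guides chosen for this contrast and on passengers near the floor, so they are values only.

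The arms were compared under further scalings of the arrays. Where each array was scaled to a median of 25 and 16 units were added afterwards, the log2 fold changes were -0.80 for miR-21-5p, -0.27 for miR-21-3p, -1.04 for miR-31a-5p and -0.32 for miR-31a-3p. Under cyclic loess they were -0.96, -0.17, -0.80 and -0.17 in the same order. Scaling by the spike-in controls, chosen after the data had been seen, does not rest on the miRNAs and gave -0.72, -0.25, -1.0 and -0.28. Both guides and the passenger miR-31a-3p were lower in 3 of 3 pairs under these 3 scalings, and miR-21-3p in 2 of 3.

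Scalings by 1 factor after the 50 units were added gave another picture for miR-21-5p. Under median scaling its pair values were -1.10, -0.51 and 1.32, with a mean of -0.10, and the groups overlapped. That of the 75th percentile gave -1.16, -0.67 and 0.72, with a mean of -0.37. In both, the pair that turned was the one holding the dim DIV0 array of replicate 3, whose median spot lay 5.87 units above the blanks, far below the 50 units added. Under median scaling miR-31a-5p was lower in 3 of 3 pairs, at -0.68, -0.99 and -0.08, but its groups overlapped too. Without the dim array the reported log2 fold changes were -0.82 for miR-21-5p, -0.18 for miR-21-3p, -0.88 for miR-31a-5p and -0.20 for miR-31a-3p. Without both arrays of replicate 3 they were -0.89, -0.26, -0.84 and -0.22.

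**Figure D3:**
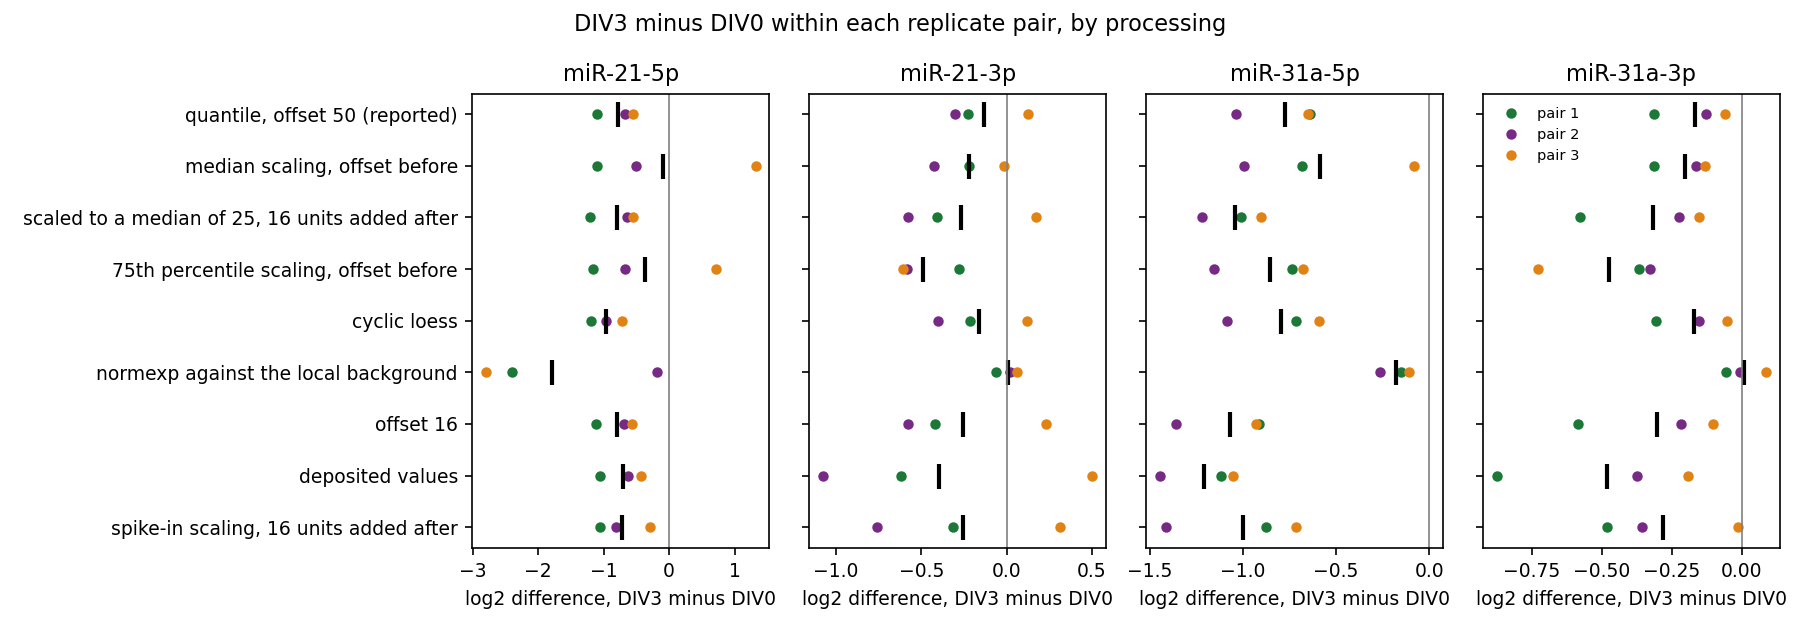
Log2 difference of DIV3 minus DIV0 for each arm in pairs 1 (green), 2 (purple) and 3 (orange), with the mean as a black tick, for the reported processing and 8 alternatives. Each panel has its own horizontal scale. The orange points of miR-21-5p at 1.32 and 0.72 are pair 3 under the 2 scalings with 50 units added first.

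The miRNAs whose levels followed each guide most closely over the 6 arrays were sought among 535 others detected on all arrays. Likeness was the root mean square (RMS) difference of normalized log2 levels after each miRNA was centred on its own mean. Nearest to miR-21-5p were miR-335 (0.18), miR-23a-3p (0.18), miR-25-3p (0.20), miR-211-3p (0.20) and miR-299a-3p (0.21), where the median over all candidates was 0.42. Nearest to miR-31a-5p were miR-211-3p (0.12), miR-328a-5p (0.14), miR-23a-3p (0.20), miR-24-3p (0.21) and miR-128-3p (0.21), with a median of 0.45. Both lists hold miR-211-3p and miR-23a-3p. All 8 miRNAs named had a log2 fold change below 0, from -0.41 for miR-128-3p to -0.88 for miR-211-3p, which a likeness over both conditions favours. The 2 guides differed from each other by an RMS of 0.23, so that miR-31a-5p was number 7 in likeness to miR-21-5p and miR-21-5p number 6 in likeness to miR-31a-5p.

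Other miRNAs described as raised in proliferating or activated cells lay on both sides of 0. The list held 24, among them the miR-17-92 and miR-106b-25 clusters, the miR-23a-27a-24 cluster, miR-221 and miR-222, and the inflammation-linked miR-155, miR-146a and miR-146b. Of the 24, 0 rose and 0 fell by limma over all miRNAs tested beside 1.15% that rose and 0.863% that fell of all 695. At an unadjusted p under 0.05 there were 11 of the 24, where 102 of the 695 miRNAs, or 14.7%, had one. The median log2 fold change of the list was -0.0098 and that of all miRNAs -0.0060, with 12 of the 24 below 0. A median over members that lie on both sides says little of any one of them. The 4 with the smallest p were split in direction. These were miR-27a-3p (-0.34 ± 0.06, adjusted p = 0.061, limma) and miR-130b-3p (-0.20 ± 0.05, adjusted p = 0.16), both lower, and miR-17-5p (0.42 ± 0.08, adjusted p = 0.062) and miR-19b-3p (0.45 ± 0.11, adjusted p = 0.14), both higher.

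With the replicate block 1 member of that list rose and 3 fell, beside 1.73% and 2.01% of all miRNAs. The member that rose was miR-19a-3p (limma adjusted p = 0.032). Those that fell were miR-23a-3p (0.026), miR-24-3p (0.032) and miR-222-3p (0.035), all 4 named after their values were seen. Without the DIV0 array of replicate 1, miR-17-5p and miR-19b-3p rose (limma adjusted p = 0.021 and 0.014). Within the miR-17-92 cluster the log2 fold changes without the block were 0.42 for miR-17-5p, 0.23 for miR-18a-5p, 0.43 for miR-19a-3p, 0.45 for miR-19b-3p and 0.45 for miR-20a-5p, but -0.03 for miR-92a-3p. Those of miR-23a-3p, miR-27a-3p and miR-24-3p were -0.54, -0.34 and -0.44, in that order. Each probe reads a mature sequence whichever gene it came from, so the values are not resolved by cluster. The difference between these sets of miRNAs was not tested.

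**Figure D4:**
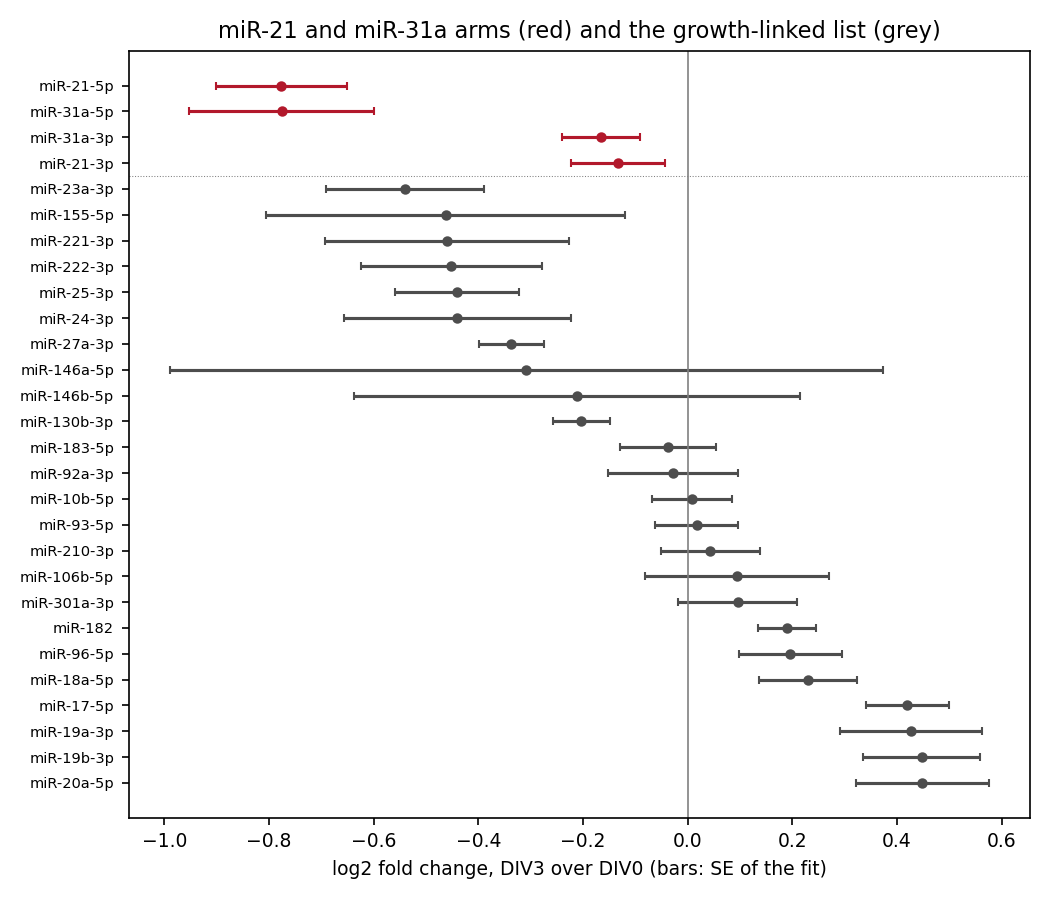
Log2 fold change of DIV3 over DIV0, with the SE of the limma fit as bars (3 arrays per group), for the 4 arms (red) and the 24 other miRNAs described as growth-linked (grey). The grey points lie on both sides of 0, from -0.54 for miR-23a-3p to 0.45 for miR-20a-5p.

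Markers of other cells were read beside the guides, since miR-21, miR-155 and miR-146a also belong to activated glia and immune cells. Of the 6 miRNAs that mark microglia and blood cells, 5 were tested, 0 rose and 0 fell by limma, and the unadjusted p was under 0.05 for 1. Over all miRNAs these shares were 1.15%, 0.863% and 14.7%, and the same hold for the lists that follow. Under the replicate block, where 2.01% of all miRNAs fell, 1 fell, miR-223-3p (-0.45 ± 0.37 without the block, limma adjusted p = 0.69, and 0.038 with it). Their log2 fold changes lay between -0.45 for miR-223-3p and 0.02 for miR-451-5p, with a median of -0.12, and miR-144-3p was detected on 0 of the 6 arrays. The summed deposited values of this list were 252, 453 and 161 in DIV0 and 184, 339 and 176 in DIV3, so the groups overlapped. Replicate 2 had the highest sum in both conditions and replicate 3 the lowest, an order that miR-31a-5p shared and miR-21-5p did not. The deposited miR-21-5p was highest in replicate 1 in DIV0 and in replicate 3 in DIV3. The inflammation-linked miR-155-5p, looked at after its values were seen, had deposited values of 48, 107 and 25 in DIV0 and 22, 60 and 21 in DIV3, again highest in replicate 2. Those of miR-146a-5p were 150, 609 and 127 in DIV0 and 117, 445 and 159 in DIV3. For miR-146b-5p they were 80, 215 and 57 in DIV0 and 72, 160 and 68 in DIV3. Both miR-146 probes were also highest in replicate 2, but in replicate 3 they were higher in DIV3 than in DIV0. The share of such cells in the miR-31a-5p or miR-21-5p signal was not tested. In these bulk samples fewer cells of a type and less RNA per cell cannot be told apart.

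Markers of neurons and of fibroblast, mural and endothelial cells did not pass the test either. Of 5 neuronal miRNAs 0 rose and 0 fell by limma (2 at an unadjusted p under 0.05), from -0.41 for miR-128-3p to 0.01 for miR-134-5p, and their summed deposited values ranged from 366 to 403 in DIV0 and from 300 to 409 in DIV3. Of 8 fibroblast, mural and endothelial miRNAs 0 rose and 0 fell by limma (1 at an unadjusted p under 0.05), from -0.24 for miR-199a-3p to 0.18 for miR-126a-5p. Their sums ranged from 202 to 394 in DIV0 and from 202 to 431 in DIV3, lowest in replicate 2 in both conditions. No defining marker of these 2 lists was undetected on all arrays. Their part in the levels of miR-21 and miR-31a was not tested.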

How the data were processed

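RNA was labelled with Cy5 and hybridised to rat miRNA arrays. The labels' protocols name a kit made for amplifying messenger RNA and do not say how it was used on miRNA, so what RNA each intensity reads beside the mature miRNA was not tested. The scanner files hold the median intensity of each spot and of its surroundings, joined from 3 gains by straight lines, neither background-corrected nor normalized, per the file headers. No label tells how the deposited table's intensity values were made. Its columns followed the scanner's spot values linearly, within 0.522 units, with a median of 25, a zero at the mean of the blank spots, and no centring. It was linked by mature miRNA ID.

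The background was removed with normexp, estimated from 1664 BLANK spots (limma 3.58.1, R 4.3.3), with 50 units added, and quantile-normalized over 761 probes. The local background correlated with the spot itself at 0.939 to 0.982 (log values) and was used only as an alternative. A miRNA was detected above the blank mean plus 2 SD, with 5% of blanks trimmed at each end. The 695 detected on at least 3 of 6 arrays were tested by lmFit and eBayes (two-sided, Benjamini-Hochberg, threshold 0.05). The 1 scanner-flagged miRNA spot, which is no member, was left out. Arrays of equal replicate number deviated together from their group means (correlations of 0.37, 0.54 and 0.47), so the numbers were taken as pairs, from the data and not from the labels.

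In 20 simulated runs of 695 miRNAs for DIV3 against DIV0, 76.0% of log2 changes of 0.5 and 95.5% of changes of 1 were found, and 5.08% of calls were false. The simulated noise was independent between arrays, unlike the real one. The members and lists were chosen with earlier results of these data known. Named miRNAs were the 4 arms, the 5 nearest profiles of each guide, the 4 growth-linked miRNAs with the smallest p, and the extremes of each marker list. Alternatives covered scaling, background, offset, filter, blocks and left-out arrays.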

Additional observations from a re-analysis of the deposited data

How the results depend on the processing

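The log2 fold changes of miR-21-5p and miR-31a-5p stayed below 0 under all 13 processing alternatives and all 9 fits with arrays left out. Both guides were chosen for a fall in this contrast, so nothing is read from the sign. The alternatives are not independent. Changed filters and the replicate block gave the same log2 fold changes as the reported fit. Slide as a fixed block gave those found without both arrays of replicate 3. Elsewhere the size of both changes moved. For miR-21-5p it was -0.10 under median scaling and -0.37 under 75th percentile scaling (50 units added first) and -1.79 with the local background. For miR-31a-5p it was -1.04 when scaled to a median of 25, -1.07 with 16 units added, -1.21 in the deposited values and -0.18 with the local background. For miR-21-3p it was -0.49 under 75th percentile scaling, -0.40 in the deposited values, and turned to 0.0070 with the local background. For miR-31a-3p it was -0.32 when scaled to a median of 25, -0.47 under 75th percentile scaling, -0.30 with 16 units, -0.48 in the deposited values, and turned to 0.0091 with the local background. The 75th percentile scaling put the median of all miRNAs at -0.25, relative to which the 4 arms stood at -0.11, -0.24, -0.60 and -0.22 (miR-21-5p, miR-21-3p, miR-31a-5p, miR-31a-3p). The difference between the miR-21 arms turned to 0.12 under both scalings with 50 units added first, was -0.30 in the deposited values and -1.80 with the local background. That of miR-31a was -0.19 with the local background. The cause was not tested. Without 1 array or pair the log2 fold changes ranged from -0.89 to -0.61 (miR-21-5p), -0.26 to -0.05 (miR-21-3p), -0.88 to -0.57 (miR-31a-5p) and -0.22 to -0.09 (miR-31a-3p).

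The number of miRNAs past the threshold was 14, and 4 under median and under 75th percentile scaling, 1 with the local background, 6 with 16 units, 7 from the deposited values, 8 with spike-in scaling (added later), 0 with slide as a fixed block (87 at an unadjusted p under 0.05, limma) and 29 with it as a random block. Without 1 array or pair it ranged from 0 to 13. With the replicate block it was 26, 12 higher and 14 lower. Growth-linked members that fell numbered 0, but 3 with the replicate block and 1 with slide as a random block (miR-27a-3p), where miR-17-5p rose (0.41, limma adjusted p = 0.033). The block leaves the log2 fold changes of the 4 arms as they are by construction, since each pair holds 1 array of each group. Brightness limits the 3p arms, and miR-31a-5p on the DIV3 array of replicate 3, which lay within reach of spots that carry no probe.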

Other observations

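The area around the miR-21-5p spot was bright on every array. Over each array the local background rose with the spot (correlations of 0.939 to 0.982, log values), so bright surroundings are not particular to this spot. In replicates 1, 2 and 3 its local median was 2569, 3302 and 726 units in DIV0, where the spot itself read 4253, 5322 and 893, and 1649, 3088 and 3773 units in DIV3, where it read 2070, 4087 and 3340. On the DIV3 array of replicate 3 the surroundings were thus brighter than the spot. Around miR-31a-5p the local median was 127, 225 and 70.0 units in DIV0 and 89.8, 238 and 149 units in DIV3, below the spot on all 6 arrays. Of 18 miRNA spots next to a member on the array grid, 15 were tested, and 0 passed the threshold without the replicate block (limma, 3 at an unadjusted p under 0.05). The adjoining miR-19a-3p and miR-92b-5p, beside miR-21-5p, had log2 fold changes of 0.43 (past the threshold with the block) and -0.46, and the adjoining miR-107-3p, beside miR-31a-5p, of 0.23.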
